A study of Mus musculus with 12 samples.

Results

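RNA-seq counts of 10 genes of regulators of G protein signalling (Rgs2, Rgs3, Rgs4, Rgs5, Rgs10, Rgs12, Rgs14, Rgs16, Rgs17 and Rgs20) were followed through 4 groups of 3T3-L1 adipocytes, out of 26341 gene symbols in the deposited table. The genes were chosen by symbol, and where a symbol stood on several features the feature was chosen by its mean count over the 12 libraries, the highest being used. The mean count decided only for Rgs3, whose 3 features held 90.4%, 7.81% and 1.74% of its counts. The names were listed with results of these libraries already known, so their p-values are not independent evidence about the family.

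3T3-L1 is a mouse fibroblast line that turns into fat-storing adipocytes in culture after a hormone mixture of dexamethasone, IBMX and insulin. All groups were differentiated in this way and received lentivirus as mature adipocytes on day 8, and RNA was taken 4 days later. GFP and Dnmt3a cells carried a pCDH vector with GFP, the control, or with the DNA methyltransferase Dnmt3a. Knock-down cells carried a short hairpin against Dnmt3a (shDnmt3a), with a scrambled hairpin (shScr) as control. Each group had 3 libraries, and the series calls them biological triplicates of this single cell line, so p-values measure the spread between 3 samples of 1 line. All cells had taken up a virus, and no group without virus was analysed here. The time in contact with virus was 2 days by the sample labels and shorter by the study's methods.

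Total counts were 29084732 to 47341091 per library, and 3 counts, taken as the floor of detection, corresponded to 0.0629 to 0.106 CPM (counts scaled to a common library size). Dnmt3a itself lay at 2730 to 2780 CPM in the Dnmt3a libraries against 90.7 to 96.6 in GFP, and at 39.3 to 41.0 CPM in shDnmt3a against 78.5 to 86.3 in shScr. All 11 adipocyte markers were above the floor in every group. Their summed level was 21800 to 23000 CPM in GFP, 27400 to 27600 in Dnmt3a, 18100 to 18800 in shScr and 17400 to 17900 in shDnmt3a. The summed level of 8 preadipocyte and fibroblast markers was 6130 to 6390 CPM in GFP and 6170 to 6870 in Dnmt3a. It was 8170 to 8680 CPM in shScr and 12400 to 12500 in shDnmt3a. Col3a1 led this sum, with means of 5630 CPM in GFP, 5890 in Dnmt3a, 7590 in shScr and 11600 in shDnmt3a. Markers of endothelial cells summed to 2.07 to 3.23 CPM and those of leukocytes to 19.2 to 31.7 CPM, with the macrophage gene Emr1 at 0 in every library. Genes of cell division summed to 105 to 110 CPM in GFP and to 70.8 to 89.7 CPM in the other groups. In such bulk libraries, fewer cells of a type and less RNA per cell cannot be told apart.

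G protein-coupled receptors pass a signal on by loading GTP onto the alpha subunit of a heterotrimeric G protein, which then acts on adenylyl cyclase, phospholipase C or other effectors. RGS proteins bind the loaded alpha subunit through a conserved RGS domain and speed its hydrolysis of GTP, which shortens the signal. In fat cells such receptors carry the signals of catecholamines, adenosine, prostaglandins and fatty acids that set lipolysis and cAMP. The family falls into subfamilies by sequence. The small R4 proteins (Rgs2, Rgs3, Rgs4, Rgs5 and Rgs16 here) act mainly on inhibitory and Gq-type alpha subunits, the R12 group holds Rgs10, Rgs12 and Rgs14, and the RZ group holds Rgs17 and Rgs20, which act on Gz and other inhibitory alpha subunits.

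Dnmt3a methylates cytosine in CG dinucleotides, so the promoter sequences of the 5 genes called on overexpression or knock-down are shown with each CG in capitals. Promoters came from RefSeq on GRCm38.p6, as windows of 250 bases before to 50 after each gene's start, and 8 of the 10 genes had at least 1 window (10 windows in all). Only the 250 bases before the start are printed, 5′ to 3′. They lie at chr1:169747643-169747892, minus strand (Rgs4), chr10:5922401-5922650, minus strand (Rgs17), chr1:153740103-153740352, plus strand (Rgs16), chr1:144004150-144004399, minus strand (Rgs2), and chr5:34949198-34949447 and chr5:34998828-34999077, plus strand (the pair of windows of Rgs12).
Rgs4: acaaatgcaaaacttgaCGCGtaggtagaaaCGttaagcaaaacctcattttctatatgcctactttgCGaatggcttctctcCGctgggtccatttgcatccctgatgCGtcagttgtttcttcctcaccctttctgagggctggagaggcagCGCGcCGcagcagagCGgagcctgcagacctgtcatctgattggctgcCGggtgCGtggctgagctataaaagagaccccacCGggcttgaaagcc
Rgs17: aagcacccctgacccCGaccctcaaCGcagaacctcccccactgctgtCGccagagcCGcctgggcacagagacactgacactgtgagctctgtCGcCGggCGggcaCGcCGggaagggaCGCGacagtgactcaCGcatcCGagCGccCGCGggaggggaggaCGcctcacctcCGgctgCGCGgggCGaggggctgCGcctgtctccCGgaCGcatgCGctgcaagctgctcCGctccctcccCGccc
Rgs16: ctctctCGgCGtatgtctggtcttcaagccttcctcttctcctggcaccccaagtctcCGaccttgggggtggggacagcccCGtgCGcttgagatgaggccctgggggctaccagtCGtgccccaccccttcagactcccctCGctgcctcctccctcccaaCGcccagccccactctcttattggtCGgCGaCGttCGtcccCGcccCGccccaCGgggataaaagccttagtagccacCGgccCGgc
Rgs2: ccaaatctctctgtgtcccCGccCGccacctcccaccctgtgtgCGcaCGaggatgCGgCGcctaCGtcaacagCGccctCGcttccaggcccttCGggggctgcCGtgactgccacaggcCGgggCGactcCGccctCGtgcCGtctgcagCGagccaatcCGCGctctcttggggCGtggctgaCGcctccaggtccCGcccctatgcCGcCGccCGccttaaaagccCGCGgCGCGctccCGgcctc
Rgs12, first window: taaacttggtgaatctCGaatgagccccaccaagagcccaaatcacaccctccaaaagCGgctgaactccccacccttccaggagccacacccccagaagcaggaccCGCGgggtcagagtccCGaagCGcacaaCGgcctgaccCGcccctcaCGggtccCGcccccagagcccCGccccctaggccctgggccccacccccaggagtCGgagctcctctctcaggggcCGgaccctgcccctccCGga
Rgs12, second window: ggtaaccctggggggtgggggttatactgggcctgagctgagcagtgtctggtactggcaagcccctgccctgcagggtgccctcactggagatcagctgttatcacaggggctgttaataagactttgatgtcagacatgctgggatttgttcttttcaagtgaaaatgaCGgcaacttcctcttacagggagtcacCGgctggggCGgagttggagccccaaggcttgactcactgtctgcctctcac

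CG dinucleotides in the whole window of 300 bases numbered 13 for Rgs4, 27 for Rgs17, 22 for Rgs16 and 33 for Rgs2. Over all 32851 promoters of that length the median was 7, with quartiles of 3 and 20. Rgs4 thus had more CG than 62.1% of all promoters, and Rgs2 had more than 91.4%. Rgs10 had 34, Rgs12 had 23 and 3 in its pair of windows, Rgs3 had 4 and 9, and Rgs5 had 6. The letters TGACG, the core of the site of the cAMP-responsive factor CREB, were counted on both strands. They occurred in the windows of Rgs4 (2 times), Rgs2 (2 times) and Rgs12 (1 time, in its second window), that is in 3 of 10 windows, and in 20.8% of all promoters. ACGTG, 1 form of the core that hypoxia-inducible factors recognise, was in 0 of the 10 windows and in 19.6% of all promoters. The form GCGTG was not counted, and the printed sequences of Rgs4 and Rgs2 hold it. DNA methylation is not part of the counts, and these letters are a description of the reference sequence alone.

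**Figure D1:**
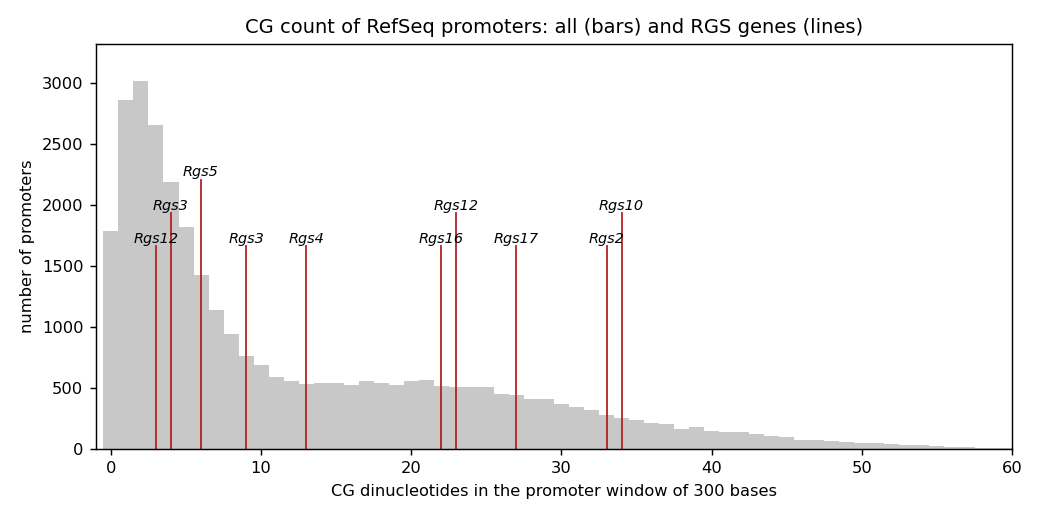
Number of CG dinucleotides (x axis) in RefSeq promoter windows of 300 bases, with the number of promoters as grey bars (y axis) and the windows of the RGS genes as red lines; windows with over 60 are outside the axis. The windows of Rgs12 (3), Rgs3 (4) and Rgs5 (6) lie below the median of 7, and that of Rgs4 (13) lies between the low-CG windows and the CG-rich group of Rgs16, Rgs12, Rgs17, Rgs2 and Rgs10 (22 to 34).

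Which RGS genes do these adipocytes express? Levels between genes were compared as CPM per kilobase of the deposited feature length, and the order given here is among the 10 genes. Rgs19, not among them, was above Rgs17 in GFP, at 6.7 ± 0.502 CPM per kb (SD, n = 3). Rgs2 stood far above the others, at 50.1 ± 0.625 CPM per kb in GFP (SD, n = 3). Rgs17 followed at 5.81 ± 0.358, Rgs12 at 4.02 ± 0.225, Rgs3 at 1.66 ± 0.229 and Rgs10 at 1.05 ± 0.352 CPM per kb, with no overlap between neighbours in this order. Rgs4 (0.563 ± 0.0858), Rgs20 (0.497 ± 0.0118) and Rgs16 (0.446 ± 0.0925 CPM per kb) overlapped each with the next. Rgs5 and Rgs14 were at or near 0. Rgs2 alone made up 78.1% of the summed per-kb level of the 10 genes in GFP, 81.9% in Dnmt3a, 80.6% in shScr and 77.4% in shDnmt3a (means of 3). The summed level itself was 64.2 ± 1.23 CPM per kb in GFP, 67.3 ± 2.93 in Dnmt3a, 61.3 ± 1.03 in shScr and 66.1 ± 1.35 in shDnmt3a (SD, n = 3).

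The order changed with the group at the lower levels. In shDnmt3a Rgs4 was the 4th gene, at 2.13 ± 0.0768 CPM per kb, above Rgs3 at 1.32 ± 0.095. In shScr the same gene was the 7th, at 0.127 ± 0.0543 CPM per kb, and overlapped with Rgs16. Its share of the summed level was 0.875% in GFP, 0.545% in Dnmt3a, 0.207% in shScr and 3.22% in shDnmt3a. Rgs12 and Rgs17, which were apart in the other 3 groups, overlapped in shScr. In shDnmt3a Rgs10 overlapped with Rgs20. By group means Rgs2 stayed at the top and Rgs5 and Rgs14 at the bottom in all 4 groups. In shScr, however, Rgs5 overlapped with Rgs16, both of them on 6 counts or fewer per library.

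**Figure D2:**
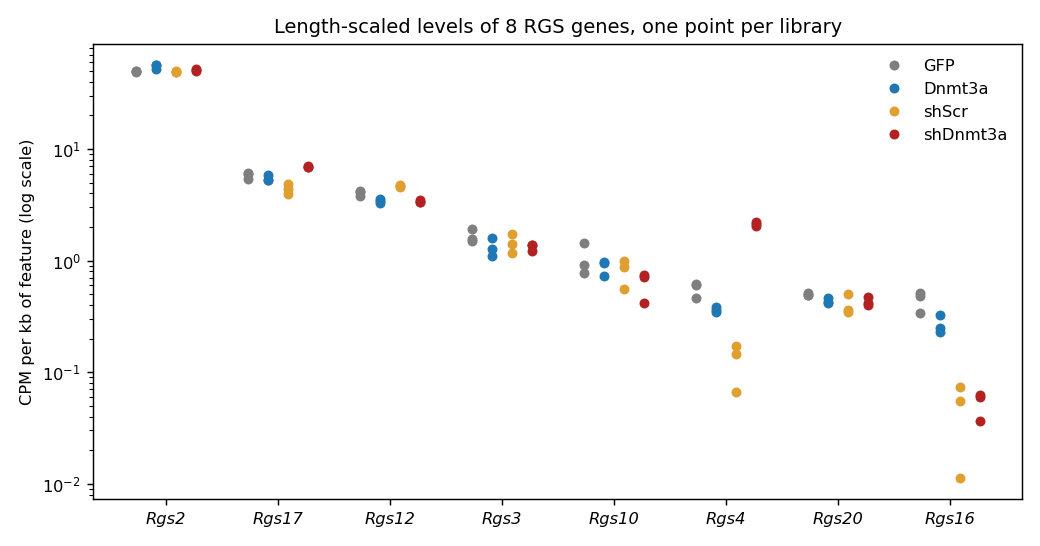
Length-scaled level (CPM per kb of feature, log axis) of the 8 RGS genes with counts in every library, 1 point per library, coloured by group. Rgs2 lies near 50 in every group; Rgs4 spans the range from 0.066 in a shScr library to 2.21 in a shDnmt3a library.

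Changes were tested over all genes that passed a filter on low counts. On overexpression (Dnmt3a against GFP), 8 of the 10 RGS genes passed the filter; 1 was called higher (Rgs2) and 3 lower (Rgs4, Rgs12 and Rgs16) at an adjusted p under 0.05, against 14.3% and 12.9% of the 14168 genes tested (27.2% in either direction). On knock-down (shDnmt3a against shScr), 7 passed the filter; 2 were called higher (Rgs4 and Rgs17) and 1 lower (Rgs12), against 23.3% and 22.5% of the 14115 genes tested (45.8% in either direction). Between the controls (shScr against GFP, in a fit of all 12 libraries), 8 passed the filter; 1 was called higher (Rgs12) and 3 lower (Rgs4, Rgs16 and Rgs17), against 23.7% and 22.8% of 14491 genes (46.5% in either direction). No test of the family as a whole was made, and nothing about the family is read from these counts. The median log2 fold change of the RGS genes tested was −0.23, 0.05 and −0.32 in the 3 comparisons, beside −0.01, 0.00 and −0.01 over all genes. Rgs5 and Rgs14 passed the filter in no comparison. Rgs16 did not pass it on knock-down, and Rgs4 passed it there only through its shDnmt3a libraries, since it needs 3 libraries above 0.283 CPM and 2 of the 3 shScr libraries reached that.

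**Figure D3:**
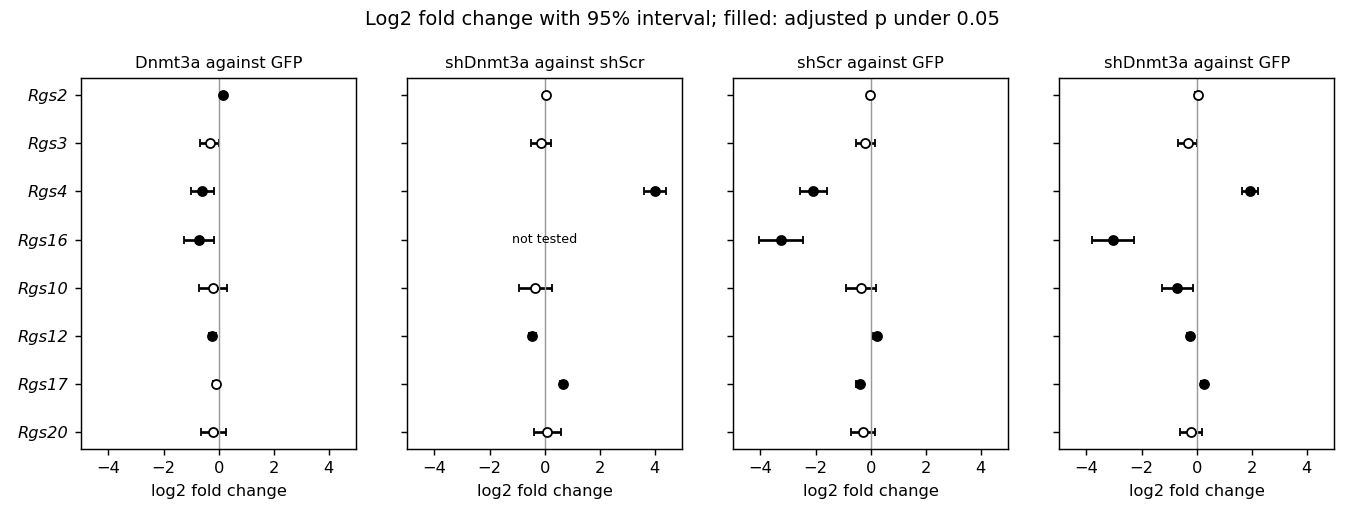
Log2 fold change (x axis) with its 95% interval for the 8 RGS genes that passed the filter in at least 1 comparison, in 4 comparisons (panels); filled points have an adjusted p under 0.05. Rgs4 lies at 4.02 on knock-down, at −2.08 for shScr against GFP and at 1.93 for shDnmt3a against GFP; intervals of Rgs2, Rgs12 and Rgs17 are narrow, and Rgs16 was not tested on knock-down.

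Rgs4, an R4 protein that turns off Gq and inhibitory alpha subunits and is best known from neurons and heart, was the RGS gene with the largest change on knock-down. It lies on chromosome 1 (171671608 to 171677773, minus strand, NCBIM37, GENCODE M1), where no other annotated gene overlaps it. Its level was 6.26, 6.49 and 6.03 CPM in the shDnmt3a libraries, from 225, 269 and 214 counts. In the shScr libraries it was 0.43, 0.499 and 0.194 CPM, from 15, 19 and 6 counts. Every shDnmt3a library was thus above every shScr library, and above every library of the other 2 groups. Rgs4 rose by 4.02 on the log2 scale (SE 0.191, 95% interval 3.61 to 4.41, adjusted p = 2.07e-12, quasi-likelihood test of edgeR, Benjamini-Hochberg over all genes), a 16.2-fold difference. Rgs4 passed the filter of this comparison only through its shDnmt3a libraries, where it was high. The difference is therefore a description, and its p-value is no support. Over the alternatives, left-out libraries included, the log2 change ran from 3.74 to 4.28.

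The control entered this difference. Rgs4 was at 1.36, 1.79 and 1.81 CPM in the GFP libraries, with no overlap with the range of either hairpin group. The shScr libraries were lower than GFP by a log2 difference of −2.08 (SE 0.239, adjusted p = 2.51e-08, edgeR). In the fit of all 12 libraries Rgs4 passed the filter through its GFP, Dnmt3a and shDnmt3a libraries. Of the 3 shScr libraries, 2 reached the cutoff of 0.278 CPM. Differences of Rgs4 from shScr are therefore a description, and their p-values are no support. Set against GFP instead of shScr, the shDnmt3a libraries were higher by 1.93 (SE 0.142, adjusted p = 3.28e-12), that is 3.82-fold. These comparisons share libraries and GFP carries another vector, so vector and hairpin cannot be told apart in them. Between shDnmt3a and GFP, a comparison added with earlier results known, 23.6% of all genes were called higher and 22.8% lower (46.5% in either direction). The RGS genes called there were Rgs4 and Rgs17, higher, and Rgs10, Rgs12 and Rgs16, lower, of 8 tested. The summed preadipocyte and fibroblast markers were also higher in shDnmt3a than in shScr, a sum led by Col3a1 (mean 11600 and 7590 CPM). Of these 8 markers, 3 were called higher and 3 lower (all genes 23.3% and 22.5%). Their part in the Rgs4 result was not tested. The mural cell markers, of interest because vascular mural cells express RGS genes, summed to 451 to 469 CPM in shDnmt3a and 464 to 480 in shScr, a sum led by Pdgfrb (mean 160 and 224 CPM). The 8 mural markers tested had a median log2 fold change of 0.32 on knock-down. By gene, 6 were called higher and 1 lower (all genes 23.3% and 22.5%). Among them were Des, at 106 CPM in shDnmt3a and 78.1 in shScr, Myh11, at 25.8 and 16.1, and Abcc9, at 2.79 and 1.22 CPM (means of 3). Their part in the Rgs4 result was not tested either.

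With added Dnmt3a, the level of Rgs4 was 1.07, 1.03 and 1.14 CPM, below all 3 GFP libraries. The fitted change was −0.60 on the log2 scale (SE 0.206, 95% interval −1.01 to −0.18, adjusted p = 0.0283, edgeR). This call rested on 29 to 72 counts per library and was not kept by DESeq2 (adjusted p = 0.0886). Nor was it kept without GFP replicate 2 (0.0893), GFP replicate 3 (0.101) or Dnmt3a replicates 1 (0.0749), 2 (0.0747) or 3 (0.0551). The direction was lower in each of these fits. The knock-down and overexpression effects on Rgs4 differed by 4.60 (interval 4.02 to 5.18, adjusted p = 1.08e-13, edgeR fit of all 12 libraries), where 19.9% of all genes were called higher and 20.4% lower (40.3% in either direction). For Rgs4 this value contains the knock-down change, so it too is a description and its p-value is no support. Of the 8 RGS genes tested for this difference of effects, 3 were called: Rgs4 and Rgs17 higher and Rgs12 lower.

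**Figure D4:**
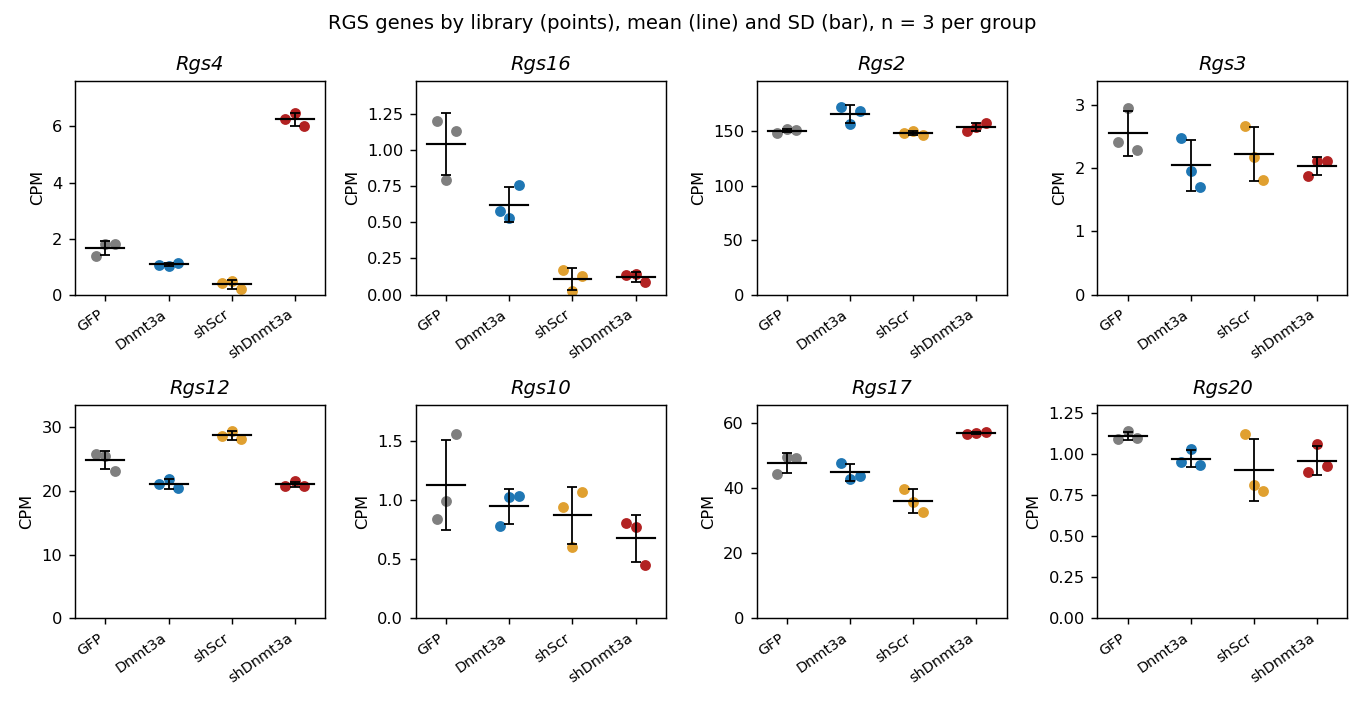
Level in CPM (y axis, from 0) of 8 RGS genes in the 12 libraries, 1 panel per gene; points are libraries, horizontal lines group means and vertical bars the SD (n = 3). The shDnmt3a points of Rgs4 (6.03 to 6.49 CPM) and Rgs17 (56.4 to 57.2 CPM) lie above all others of the gene, and both hairpin groups of Rgs16 lie at or below 0.172 CPM.

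Rgs16, an R4 protein induced by activating signals in many cells, was lower in both hairpin groups than in both pCDH groups. Its counts were 57, 32 and 40 in the GFP libraries and 20, 15 and 30 in the Dnmt3a libraries, but 6, 1 and 4 in shScr and 5, 6 and 3 in shDnmt3a. In CPM these were 1.2, 0.795 and 1.13 for GFP, 0.577, 0.531 and 0.759 for Dnmt3a, 0.172, 0.0263 and 0.129 for shScr and 0.139, 0.145 and 0.0846 for shDnmt3a. All hairpin libraries lay below all pCDH libraries, and the hairpin groups overlapped with each other. Rgs16 entered the fit of all 12 libraries only through its GFP and Dnmt3a libraries, the groups where it was high, so its differences from the hairpin groups are a description and their p-values are no support. Against GFP, shScr was lower by a log2 difference of −3.25 (SE 0.392, adjusted p = 5.85e-08, edgeR), a 9.52-fold difference, and shDnmt3a by −3.04 (SE 0.37, adjusted p = 7.97e-08). Several hairpin libraries were at or near the floor of 3 counts, so these folds rest on few reads. On knock-down Rgs16 had too few counts for the test. In the fit of all 12 libraries the difference was 0.21 (SE 0.608, adjusted p = 0.809).

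With added Dnmt3a the fitted change of Rgs16 was −0.72 (SE 0.263, 95% interval −1.25 to −0.18, adjusted p = 0.0391, edgeR), with no overlap between the groups. This call was lost with DESeq2 (adjusted p = 0.121), in the fit of all 12 libraries (0.0524), and without GFP replicate 1 (0.166), GFP replicate 3 (0.108), Dnmt3a replicate 1 (0.121) or Dnmt3a replicate 2 (0.123). The gene spans chromosome 1 from 155587479 to 155592598 on the plus strand (NCBIM37, GENCODE M1) with no overlapping gene. In the sum of adipocyte markers the Dnmt3a libraries were above GFP, with 10 of 11 markers called higher (all genes 14.3%). Genes of cell division were lower there, with 5 of 8 called lower and 1 higher (all genes 12.9% and 14.3%). Their part in the changes of the RGS genes on overexpression was not tested.

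Rgs2, which is selective for Gq and is induced early in adipocyte differentiation, was the most abundant RGS gene and changed little. Its level was 149, 152 and 151 CPM in GFP and 172, 157 and 169 CPM in Dnmt3a, without overlap. It rose by 0.15 on the log2 scale on overexpression (SE 0.0408, interval 0.06 to 0.23, adjusted p = 0.00695, edgeR), a 1.11-fold difference. The call was lost without Dnmt3a replicate 1, the highest library (adjusted p = 0.0588). In the hairpin groups the values were 149, 150 and 147 CPM for shScr and 150, 154 and 158 CPM for shDnmt3a. That difference of 0.05 (interval −0.02 to 0.13, adjusted p = 0.261) was not called, and neither was that between the controls, −0.01 (interval −0.09 to 0.07). At 4425 to 7079 counts per library Rgs2 had the narrowest intervals of the family, with an upper bound of 0.13 on knock-down. Rgs2 lies on chromosome 1 as well (145846468 to 145851291, minus strand, NCBIM37, GENCODE M1).

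Rgs3, another R4 gene whose longer products carry additional domains, was not called in any comparison. It ranged from 1.7 to 2.95 CPM over the 12 libraries, with overlapping groups on both overexpression and knock-down. The log2 differences were −0.33 (interval −0.67 to 0.02) on overexpression and −0.13 (interval −0.48 to 0.22) on knock-down, so changes of a moderate size in either comparison lie within the intervals. The knock-down difference changed sign without shScr replicate 1 (0.02). Rgs5, a gene typical of pericytes, had 10 reads in all 12 libraries together, 7 of them in GFP. It sits next to Rgs4 on chromosome 1, 45663 bases away, and was not detectable at this depth where Rgs4 reached 214 to 269 counts. The pericyte gene Kcnj8 had at most 2 counts in a library, and was the 1 of 9 mural markers under 3 counts throughout. The other mural markers reached 3 counts in each group, among them Pdgfrb (group means of 160 to 224 CPM) and Abcc9 (0.776 to 2.79 CPM).

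Among the R12 genes, Rgs12 showed the opposite sign of Rgs4 on knock-down. It encodes a large scaffold protein that carries a PDZ domain and a second site for inhibitory alpha subunits beside its RGS domain. Its level was 28.6, 29.5 and 28.1 CPM in shScr and 20.8, 21.5 and 20.8 CPM in shDnmt3a. It fell by 0.45 on the log2 scale (SE 0.0561, interval −0.57 to −0.33, adjusted p = 1.91e-06, edgeR), with no overlap, and over the alternatives the change ran from −0.47 to −0.43. In GFP the level was 25.8, 25.5 and 23.2 CPM, and in Dnmt3a 21.1, 21.9 and 20.4 CPM, again without overlap. On overexpression it therefore fell too, by 0.23 on the log2 scale (SE 0.0614, adjusted p = 0.00373, edgeR), a call that held in each alternative.

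Rgs12 was thus called lower in both comparisons, beside 12.9% of all genes on overexpression and 22.5% on knock-down. The share of all genes called lower in both was not counted. The knock-down effect was the larger, by −0.23 (SE 0.0805, interval −0.39 to −0.06, adjusted p = 0.026, edgeR fit of all 12 libraries). That difference of effects was lost without a filter on low counts (adjusted p = 0.064). It was also lost without GFP replicate 3 (0.0828), Dnmt3a replicate 2 (0.0634), shScr replicate 2 (0.0615) or shDnmt3a replicate 1 (0.0519). Between the controls, shScr was above GFP by 0.22 (SE 0.0553, adjusted p = 0.00177), and against GFP the shDnmt3a libraries were lower by −0.24 (SE 0.0565, adjusted p = 0.000878). The levels of the Dnmt3a and shDnmt3a libraries thus lay close together, from 20.4 to 21.9 CPM over these 6. Rgs12 spans 90200 bases of chromosome 5 (35292094 to 35382293, plus strand, NCBIM37, GENCODE M1), and an annotated miRNA gene overlaps its span.

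Rgs10, a small R12 protein selective for inhibitory alpha subunits, ranged from 0.451 to 1.56 CPM. The log2 differences were −0.22 (interval −0.73 to 0.29) on overexpression and −0.34 (interval −0.93 to 0.26) on knock-down, and neither was called. The overexpression difference changed sign without GFP replicate 3 (0.06). Set against GFP, the shDnmt3a libraries were lower by −0.70 (SE 0.272, adjusted p = 0.0364, edgeR), a call that was not recomputed under the alternatives. The values there were 0.807, 0.772 and 0.451 CPM in shDnmt3a and 0.839, 0.993 and 1.56 CPM in GFP, a narrow gap on 16 to 55 counts per library. Rgs14, which like Rgs12 carries a second site for alpha subunits, had 7 reads in all 12 libraries together, with at most 3 in 1 library. At this depth it was not detectable above the floor in any group.

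In the RZ group, Rgs17 rose on knock-down. Its level was 39.6, 35.7 and 32.5 CPM in shScr and 56.4, 56.8 and 57.2 CPM in shDnmt3a, with no overlap. The change was 0.66 on the log2 scale (SE 0.0573, interval 0.54 to 0.78, adjusted p = 1.48e-08, edgeR), a 1.58-fold difference, on 1003 to 2357 counts per library. It ran from 0.59 to 0.73 over the alternatives and held in each. On overexpression the values were 44.2, 49.5 and 49.1 CPM in GFP and 47.7, 42.8 and 43.6 CPM in Dnmt3a, which overlapped. The difference of −0.08 (interval −0.19 to 0.02, adjusted p = 0.243) was not called. The effects on knock-down and overexpression differed by 0.74 (interval 0.57 to 0.90, adjusted p = 1.8e-08, edgeR).

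As for Rgs4, the controls of Rgs17 were apart, with shScr below GFP by a log2 difference of −0.40 (SE 0.0585, adjusted p = 1.88e-06, edgeR). Against GFP the shDnmt3a libraries were higher by 0.26 (SE 0.0561, adjusted p = 0.000383), a 1.2-fold difference. So Rgs4 and Rgs17 had the same order of groups at both ends, with shScr lowest and shDnmt3a highest, while Rgs12 had shScr highest. Rgs17 spans chromosome 10 from 4424141 to 4520878 on the plus strand in NCBIM37 (GENCODE M1), whereas its RefSeq promoter window on GRCm38.p6 is on the minus strand. The builds thus differ in the strand of this gene, and the window printed for it was not placed on NCBIM37. Its nearest protein-coding neighbour, the translation release factor gene Mtrf1l, chosen after its values were seen, lies 1752 bases away. Mtrf1l fell by 0.42 on knock-down (SE 0.0864, adjusted p = 0.000512, edgeR), where 22.5% of all genes were called lower. Its controls were apart as well, with shScr above GFP by 0.37 (SE 0.0784, adjusted p = 0.000237, edgeR). Rgs20, the other RZ gene, ranged from 0.777 to 1.14 CPM. Its log2 differences were −0.20 (interval −0.66 to 0.26) on overexpression and 0.09 (interval −0.39 to 0.58) on knock-down, neither of them called. In the annotation 3 genes overlap its span, and reads of overlapping genes may not be separable there.

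The pattern of Rgs4 over the 12 libraries was most like those of Fam117b, mKIAA0585 and B4galt1, a galactosyltransferase, among 13663 genes tested in both comparisons. Pearson's correlations of log2 CPM were 0.98 for each, as a description over 12 libraries that share their groups. B4galt1 was at 96.2, 89.9, 73.6 and 127 CPM in GFP, Dnmt3a, shScr and shDnmt3a (means of 3), the same order of groups as Rgs4 at a smaller range. Rgs16, the called gene with the largest change on overexpression, was most like Lass6, a ceramide synthase (0.97), Grhl1, a transcription factor (0.97), and Hcfc1r1 (0.97). Hcfc1r1 was at 124, 109, 59.5 and 64.2 CPM in the same groups, with both hairpin groups low.

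The table held 10 further RGS genes, of which 3 (Rgs9, Rgs11 and Rgs19) passed the filter. Rgs19, of the RZ group, was at 6.7 ± 0.502 CPM per kb in GFP (SD, n = 3), above Rgs17, and was not called on overexpression (−0.08) or knock-down (0.06). On overexpression Rgs9 was at −0.39 (SE 0.158, adjusted p = 0.0607, edgeR) and Rgs11 at −0.47 (SE 0.229, adjusted p = 0.125), neither of them called. Rgs11, of the R7 group that pairs with the beta subunit Gnb5, rose by 0.56 on knock-down (SE 0.201, adjusted p = 0.0279, edgeR). Its mean level was 1.03 CPM in shScr and 1.51 CPM in shDnmt3a, on 32 to 69 counts per library. In GFP the mean was 1.35 CPM, and GFP overlapped with shDnmt3a.

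The pathway around the RGS genes is described by list, each count beside the share of all genes called. Of 12 tested genes for proteins with an RGS-like domain and binding partners of RGS proteins, 1 was called higher and 1 lower on overexpression (all genes 14.3% and 12.9%). These were Gnb5 (0.20, SE 0.0468) and the Wnt pathway scaffold Axin1 (−0.14, SE 0.0461). On knock-down 3 of 12 were lower and 0 higher (all genes 22.5% and 23.3%). The median over the list was −0.03 on overexpression and −0.01 on knock-down.

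The alpha subunits on which RGS proteins act had 2 of 11 tested called higher and 2 lower on overexpression (all genes 14.3% and 12.9%), with a median of 0.07. On knock-down 5 were higher and 1 lower (all genes 23.3% and 22.5%), with a median of 0.13. Gnas, the stimulatory subunit that activates adenylyl cyclase and no classical substrate of these RGS proteins, rose in both, by 0.25 (SE 0.0378) and 0.32 (SE 0.0431). Gnaq, a substrate of the R4 proteins, was at −0.17 (SE 0.0395) on overexpression, and its relative Gna11 at −0.21 (SE 0.0359) on knock-down. Of 11 beta and gamma subunits, 1 was higher (Gnb2, 0.10) and 1 lower (Gng12, −0.29) on overexpression, beside the same shares of all genes. On knock-down 2 were higher and 4 lower, between Gng7 at 0.71 (SE 0.252) and Gng10 at −0.48 (SE 0.0613), and the medians were −0.01 and −0.07.

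Kinases and arrestins that silence receptors had 1 of 8 called higher and 0 lower on overexpression (all genes 14.3% and 12.9%). On knock-down 1 was higher and 2 were lower (all genes 23.3% and 22.5%). Beta-arrestin 1, Arrb1, was the higher one in both, at 0.14 (SE 0.0446) and 0.56 (SE 0.0397), and the receptor kinase Grk5 was at −0.32 (SE 0.0633) on knock-down. Grk5 had means of 19.1 CPM in GFP, 24.2 in shScr and 19.4 in shDnmt3a. Adenylyl cyclases and phospholipase C beta enzymes had 2 of 9 higher and 1 lower on overexpression, and 3 of 10 higher and 1 lower on knock-down, beside those shares. Plcb2, a phospholipase that Gq activates, was at 0.39 (SE 0.119) on overexpression and at −0.89 (SE 0.121) on knock-down, with means of 4.29 CPM in GFP, 6.92 in shScr and 3.75 in shDnmt3a. Adcy7, a cyclase, was at −0.34 (SE 0.0857) on overexpression. Its means were 11 CPM in GFP, 8.76 in Dnmt3a, 18.6 in shScr and 37 in shDnmt3a, so that it was higher on knock-down. The cyclase Adcy5 rose by 1.17 (SE 0.067) on knock-down, with means of 23.9 CPM in GFP, 16.2 in shScr and 36.2 in shDnmt3a.

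Genes of cAMP breakdown and protein kinase A had 2 of 21 called higher and 0 lower on overexpression (all genes 14.3% and 12.9%), with the kinase inhibitor Pkig at 0.22 (SE 0.0586). On knock-down 10 of 22 were higher and 2 lower (all genes 23.3% and 22.5%), with a list median of 0.16 beside 0.00 over all genes. Pde1b, a calcium-activated phosphodiesterase, rose by 1.49 (SE 0.0615), with means of 13.7 CPM in GFP, 13.6 in shScr and 38.1 in shDnmt3a, and Prkar2b, the main regulatory subunit of the kinase in fat, was at −0.19 (SE 0.0356). Receptors known in adipocytes had 8 of 30 higher and 4 lower on overexpression (all genes 14.3% and 12.9%), between the nicotinic acid receptor Niacr1 at 0.43 (SE 0.0498) and the neuropeptide Y receptor Npy1r at −0.74 (SE 0.161). On knock-down 9 of 30 were higher and 5 lower (all genes 23.3% and 22.5%), between the fatty acid receptor Gpr120 at 1.76 (SE 0.123) and the sphingosine phosphate receptor S1pr2 at −0.81 (SE 0.0809). Gpr120 had means of 6.41 CPM in GFP, 2.25 in shScr and 7.61 in shDnmt3a, so that shScr was also below GFP, and S1pr2 had 19.3, 16.4 and 9.35 CPM. The list medians were −0.12 and 0.23.

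Known targets of cAMP and CREB had 1 of 9 higher and 2 lower on overexpression (all genes 14.3% and 12.9%), and 4 of 9 higher and 2 lower on knock-down (all genes 23.3% and 22.5%). Pck1, an enzyme of glyceride and glucose synthesis, was at 0.18 (SE 0.0386) and the phosphatase gene Dusp1 at −0.27 (SE 0.073) on overexpression. Fos, an early response factor, rose by 1.15 (SE 0.144) on knock-down and the coactivator gene Ppargc1a fell by 0.61 (SE 0.0392). The hairpin control was far from GFP for both. Fos had means of 26.1 CPM in GFP, 1.63 in shScr and 3.62 in shDnmt3a, so that shDnmt3a was also below GFP, and Ppargc1a had 73.2, 129 and 84.1 CPM, so that shDnmt3a was above GFP. The list medians were −0.07 and 0.24. In the comparison of the controls the receptor list had 4 of 31 called higher and 12 lower in shScr, and the CREB list 2 of 9 higher and 4 lower (all genes 23.7% and 22.8%).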

How the data were processed

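RNA-seq (ribosomal RNA depleted with Ribo-Zero, TruSeq libraries) was analysed for 12 libraries in 4 labelled groups of 3. By the study's methods and the submitters' processing notes, the authors used TopHat2 (2.0.14) for alignment to mm9, then SAMtools (0.1.19), Picard (2.2.4) and, for counting, featureCounts (1.4.6). The strand setting is not given there. What they deposited is a table of raw counts for 27473 features, of which 7094 had no count.

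Counts were TMM-scaled and tested with edgeR's quasi-likelihood test (4.0.16, R 4.3.3) over all features that passed edgeR's default filter (minimum count 10), with Benjamini-Hochberg adjustment and calls at 0.05; intervals are 95%. Dnmt3a against GFP and shDnmt3a against shScr used their 6 libraries, and the other contrasts 1 fit of 12. Counts per library pair differed by more than sampling noise in every group (chi-square per degree of freedom 2.44 to 10.1).

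Members and lists were chosen with earlier results of these data known. Every member is named; in each other list, per comparison, the called genes of highest and lowest log2 fold change whose mean count is 20 or more (1 such gene is not reported here); and the 3 genes most correlated with the most changed called member. Positions come from NCBIM37 with GENCODE M1, promoters from RefSeq on GRCm38.p6, and protein sequences were not used here. Alternatives were RLE size factors, DESeq2 (1.42.0), no filter, 1 CPM in 3 libraries, a replicate block, counts summed per symbol, 1 fit of 12 libraries and leaving out each library. The comparison of shDnmt3a with GFP was not recomputed under these alternatives. Counting floors cover counting error only.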

Additional observations from a re-analysis of the deposited data

How the results depend on the processing

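Of 429 gene values recomputed under alternatives, 405 kept their direction and side of the threshold, 18 were no longer called, 1 became called and 5 changed sign. The 5 were not called with either sign. They were Rgs10 on overexpression without GFP replicate 3 (0.062), Rgs3 on knock-down without shScr replicate 1 (0.016), and the difference of effects of Rgs10 without GFP replicate 1 (0.066), shScr replicate 3 (0.037) or shDnmt3a replicate 3 (0.085). Over the left-out libraries these values ran from −0.41 to 0.06, from −0.25 to 0.02 and from −0.41 to 0.09. On overexpression 3 RGS genes were called lower, but 1 with DESeq2 and 1 to 2 when a library was left out, and the 1 called higher went to 0 without Dnmt3a replicate 1. The calls that depend on these choices are those of Rgs4, Rgs16 and Rgs2 on overexpression and the difference of effects of Rgs12; the cause was not tested. Rgs2 gained a call for that difference without Dnmt3a replicate 2 (adjusted p = 0.0333, edgeR). Counts of RGS genes called on knock-down and between the controls stayed within 1.5 times of those reported under each alternative.

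Replicate numbers did not pair the libraries, since correlations of the deviations of same-numbered libraries lay between −0.09 and 0.05. With a replicate block, 1 RGS gene was higher and 3 lower on overexpression, and 2 higher and 1 lower on knock-down; over all genes 2023 and 1830, and 3092 and 2931, were called. Depth limits Rgs5, Rgs14 and, in the hairpin groups, Rgs16, which had at most 6 counts there. Groups of 3 were not examined for single outlying libraries.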
